A study of Sus scrofa with 8 samples.

Results

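The enzymes that turn cholesterol into bile acids were followed in the liver of pigs before and after a steatotic diet. The set was defined by name, as the rows of the expression table whose symbol was CYP7A1, CYP8B1, CYP27A1, CYP7B1, HSD3B7, AKR1D1, AMACR, ACOX2, SLC27A5 or BAAT, a rule that uses no measured value, although results of these data were known when it was written. Of these 10 symbols, 8 were found among the 18103 listed genes and transcripts, and all 8 were among the 13175 that passed the filter on low values and were tested. CYP7B1 and BAAT were not matched by symbol.

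Hepatic RNA came from male Landrace x Large White pigs and was sequenced in 8 libraries, each a pool of equal amounts of RNA from 2 animals. The 4 pools of the initial state were made from liver biopsies of pigs aged 4 months on the control diet. The 4 pools of steatosis came from the same animals at 6 months of age, after 2 months on a diet rich in saturated fat, fructose, cholesterol and sodium cholate, and poor in methionine and choline. The later livers were sampled after euthanasia, so diet, age and way of sampling cannot be told apart. Sodium cholate is itself a bile acid salt, so the animals ate an end product of the pathway along with its substrate. Values are FPKM, fragment counts scaled for transcript length and library size, and a replicate is a pool, so each SD is between pools and not between pigs.

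Bile acids are made in hepatocytes by 2 routes. In the classical route CYP7A1, a microsomal cytochrome P450, hydroxylates cholesterol, and this is the rate-limiting step. In the alternative route CYP27A1, in mitochondria, oxidises the cholesterol side chain first and CYP7B1 hydroxylates the product. The sterol ring is then modified, the side chain is shortened in peroxisomes, and the acid is joined to glycine or taurine. Bile acids restrain their own synthesis, in the liver through the receptor NR1H4 (FXR) and its target NR0B2 (SHP), and from the intestine through the hormone FGF19 acting on FGFR4 and its co-receptor KLB. Pigs differ from people in making much hyocholic acid, for which they use CYP4A21.

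CYP7A1 and CYP27A1, which start the classical and the alternative route, were higher in steatosis, and the other 6 members did not pass the test. At an adjusted p under 0.05 (limma, Benjamini-Hochberg over all 13175 genes), 2 of the 8 members were higher, while 26.7% of all tested genes were. None was lower, against 2.28% of all tested genes. The share of members called higher, 2 of 8, was thus near the background. At an unadjusted p under 0.05, 3 members were higher and 1 was lower. No share of all tested genes is given at that looser limit, so these counts cannot be read against a background. By the stricter limits of the study, an adjusted p under 0.01 with a log2 fold change beyond 1, 1 member was called, CYP7A1, and 6.35% of all tested genes passed them, 6.01% upwards. The median log2 fold change of the members was 0.23, and that of all genes tested was 0.25. Changes below are given as measured. The general shift of 0.25 has to be set beside them, because scaling the libraries by their median ratio brought it to -0.02 and brought the share of higher calls among all calls from 92.1% to 52.9%.

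**Figure D1:**
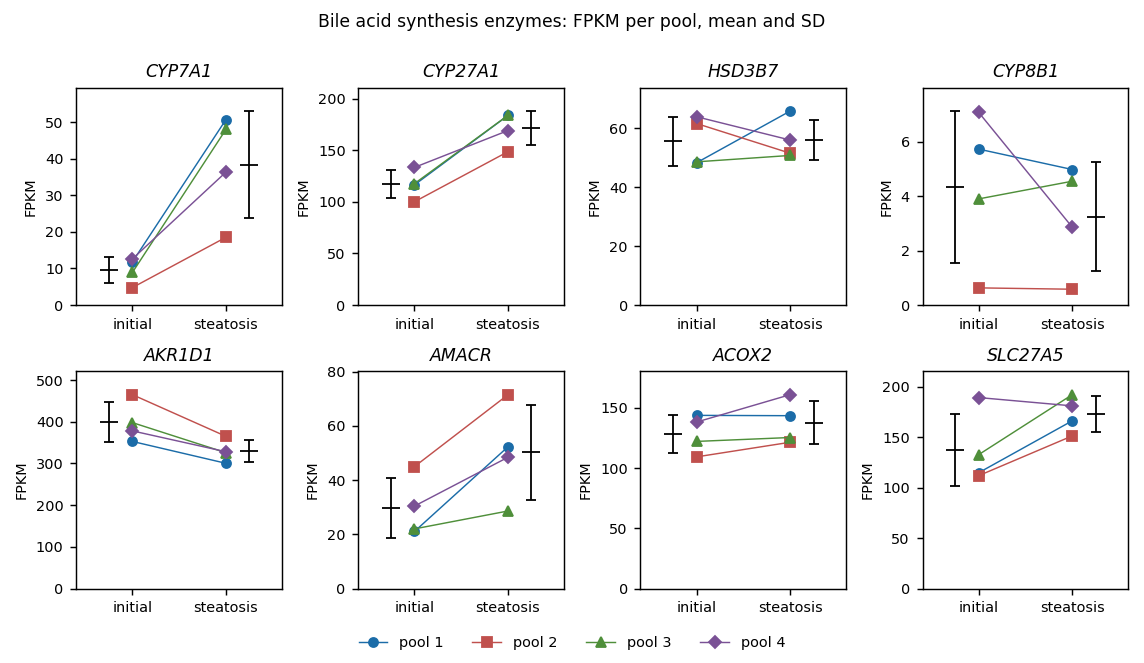
Expression of the 8 members in FPKM (vertical axes, each from 0) in the initial state and in steatosis. Each symbol is a pool of 2 pigs, lines join pools of the same number, and the horizontal mark with its bar is the mean and SD of 4 pools. CYP7A1 and CYP27A1 are the genes whose groups do not overlap, and pool 2 is the lowest pool for CYP8B1 in both groups.

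CYP7A1 (gene 448985, chromosome 4, 74343101 to 74372628, Sscrofa11.1) was measured at 11.8, 4.77, 8.91 and 12.6 FPKM in pools 1 to 4 of the initial state. In steatosis pools 1 to 4 it reached 50.8, 18.6, 48.1 and 36.4 FPKM. Every pool of steatosis lay above every pool of the initial state, and pool 2 was the lowest in both groups. The mean rose from 9.52 ± 3.55 to 38.5 ± 14.7 FPKM (SD, n = 4 pools each; two-sided exact permutation test of the means, p = 0.0286, and 4 pools against 4 allow no smaller p). On the log2(FPKM + 0.1) scale it rose by 1.99 (SE 0.37, limma adjusted p = 0.00362), a 3.98-fold change with a 95% confidence interval of 2.26 to 7.02. Between pools of the same number the ratio ran from 2.88 in pool 4 to 5.40 in pool 3.

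Of the 21 alternative settings tried, CYP7A1 stayed past an adjusted p of 0.05 in all, with log2 fold changes of 1.70 to 2.31 and limma adjusted p values of 0.000289 to 0.0176. It no longer passed the stricter limit of 0.01 without steatosis pool 1 (limma adjusted p = 0.0122), pool 3 (0.0120) or pool 4 (0.0116), nor under the upper quartile (0.0133) and median ratio (0.0176) scalings. Pool 1 of the initial state held 2810 FPKM of skeletal muscle markers and 1516 FPKM of stomach mucosa markers in sum, where the other 7 libraries held at most 20.9 and 28.4. Without pool 1 of both groups the log2 fold change of CYP7A1 was 1.96 (limma adjusted p = 0.0140).

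CYP27A1 (gene 100126282, chromosome 15, 120809886 to 120852196) was measured at 117, 100.1, 118 and 133 FPKM in the initial pools 1 to 4. In the steatosis pools it was measured at 184, 149, 184 and 169 FPKM. The groups did not overlap, which held for 29.6% of all tested genes in this direction, and all 4 pools of the same number were higher in steatosis. The mean rose from 117 ± 13.6 to 171 ± 16.7 FPKM (SD, n = 4 each; exact permutation p = 0.0286), a 1.47-fold change with a 95% confidence interval of 1.24 to 1.74 (log2 fold change 0.55, SE 0.11, limma adjusted p = 0.00577). This rise is 0.30 above the median of all genes. Under scaling by the upper quartile or the median ratio, it was 0.33 and 0.27 with limma adjusted p values of 0.112 and 0.235, so the call for CYP27A1 did not hold there. Macrophages also express CYP27A1, and 11 of 14 macrophage markers were higher in steatosis, against 26.7% of all tested genes. The summed levels of these markers were 985 to 1264 FPKM in the initial state and 2250 to 3004 in steatosis. The part of macrophages in the result was not tested. In whole liver, fewer cells of a type and less RNA per cell cannot be told apart.

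No row carried the symbol CYP7B1, the enzyme that follows CYP27A1. LOC100738003 (chromosome 4, 69615953 to 69793131), which the files describe as a hydroxylase like that of CYP7B1, was looked up after the values were seen and is no member. It was measured at 25.8, 31.2, 33.2 and 25.7 FPKM in the initial pools and at 23.6, 34.5, 32.6 and 27.0 FPKM in steatosis. The groups overlapped throughout (log2 fold change 0.01, 95% confidence interval -0.31 to 0.33, limma adjusted p = 0.952).

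Among the enzymes that modify the sterol ring, none of 3 was called in either direction. HSD3B7 (gene 100525281, chromosome 3, 17459627 to 17463381) oxidises the ring after its hydroxylation, and both routes need it. Its levels were 48.3, 61.6, 48.6 and 63.9 FPKM in the initial state and 65.9, 51.6, 50.8 and 56.0 FPKM in steatosis. The means of 55.6 ± 8.32 and 56.1 ± 6.93 FPKM (SD, n = 4 each) differed by less than the spread between pools, with a fold change of 1.01 and a 95% confidence interval of 0.83 to 1.23. Its sign turned to lower under the upper quartile and median ratio scalings, with log2 fold changes of -0.21 and -0.27.

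CYP8B1 (gene 403328, chromosome 13, 26330233 to 26331738) adds the hydroxyl group that sets cholic acid apart from chenodeoxycholic acid. It was the lowest member in all 8 libraries, with 5.73, 0.63, 3.90 and 7.08 FPKM in the initial state and 4.98, 0.58, 4.55 and 2.86 FPKM in steatosis. Pool 2 was low in both groups and the other pools overlapped. The means were 4.34 ± 2.79 and 3.24 ± 2.00 FPKM (SD, n = 4 each), and the log2 fold change of -0.34 had a 95% confidence interval of -2.11 to 1.43 (limma adjusted p = 0.770). Fold changes from 0.23 to 2.70 lie within that interval. With the pool number as a block, which takes up the low values of pool 2, the interval of the fold change narrowed to 0.54 to 1.16 and the limma adjusted p was 0.311. Without pool 4 of the initial state or pool 2 of steatosis the sign turned, to 0.03 and 0.31.

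AKR1D1 (gene 100520813, chromosome 18, 11416065 to 11532846) reduces the ring and gives bile acids their bent shape. It was the most abundant member in every library, with 353, 465, 398 and 378 FPKM in the initial state and 300.4, 365, 326 and 328 FPKM in steatosis. All 4 pools of steatosis were below the initial pool of the same number, at 0.785 to 0.868 of it, and 5.97% of all tested genes were lower in all 4 pools. The groups overlapped by pool 2 of steatosis and pool 1 of the initial state. The means were 399 ± 48.0 and 330 ± 26.6 FPKM (SD, n = 4 each; exact permutation p = 0.0571), with a log2 fold change of -0.27 (SE 0.11, limma adjusted p = 0.0874). Relative to the median gene the difference of AKR1D1 was -0.52. Under the upper quartile and median ratio scalings it was called lower, with log2 fold changes of -0.49 and -0.55 and limma adjusted p values of 0.00902 and 0.00849.

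The side chain is shortened in peroxisomes, where AMACR turns the intermediate into the form that ACOX2 can oxidise. AMACR (gene 100512020, chromosome 16, 20005741 to 20023339) was measured at 21.1, 45.0, 22.0 and 30.5 FPKM in the initial pools and at 52.4, 71.6, 28.6 and 48.5 FPKM in steatosis. Every pool was higher in steatosis than its initial counterpart, by 1.30-fold to 2.48-fold, as were 44.1% of all tested genes, but the groups overlapped. The means were 29.7 ± 11.08 and 50.3 ± 17.6 FPKM (SD, n = 4 each). The log2 fold change was 0.76 (SE 0.30), with a limma adjusted p of 0.0841 without and 0.0107 with the pool number as a block, so AMACR was called where each pool was compared with its own counterpart, by a model that called 25.7% of all tested genes higher. It was also called without initial pool 2 (limma adjusted p = 0.0341) and without steatosis pool 3 (limma adjusted p = 0.0263), and when scaled by hepatocyte markers.

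ACOX2 (gene 100516877, chromosome 13, 40220952 to 40255967), the peroxisomal oxidase of branched acids, was measured at 144, 109, 122 and 138 FPKM in the initial state and at 143, 121, 125 and 161 FPKM in steatosis. Its groups overlapped, with means of 128 ± 15.7 and 138 ± 18.2 FPKM (SD, n = 4 each) and a fold change of 1.07 (95% confidence interval 0.89 to 1.30). Its sign turned to lower under these scalings too, with log2 fold changes of -0.12 and -0.18.

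SLC27A5 (gene 102158419, chromosome 6, 63068880 to 63075246), the ligase that activates bile acids for conjugation, was measured at 115, 112, 133 and 189 FPKM in the initial pools and at 166, 151, 192 and 181 FPKM in steatosis. Pool 4 of the initial state lay within the range of steatosis, and the other 3 initial pools lay below it. The means were 137 ± 35.9 and 173 ± 17.8 FPKM (SD, n = 4 each), with a log2 fold change of 0.36 (95% confidence interval -0.01 to 0.73, limma adjusted p = 0.125). Without that pool the log2 fold change of SLC27A5 was 0.53 and was called (limma adjusted p = 0.0101).

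BAAT, which joins the activated acid to glycine or taurine, had no row of its own symbol. LOC102158534 (chromosome 1, 243065668 to 243084816), described in the files as a BAAT-like transferase, was listed at 0 to 0.03 FPKM in the initial state and 0 to 0.08 FPKM in steatosis, and was not tested. LOC110255172 (chromosome 1, 243033379 to 243039795), described as a related amino acid N-acyltransferase, lay at 164, 169, 139 and 149 FPKM in the initial state. In steatosis it lay at 136, 123, 118 and 99.6 FPKM, below every initial pool. It fell by 0.39 on the log2 scale (SE 0.11, limma adjusted p = 0.0309), and this call was lost in 8 of 21 alternative settings, among them the separate removal of initial pools 1 and 2 and of steatosis pools 2, 3 and 4, with limma adjusted p values of up to 0.179. LOC100515185, a further row of that family on chromosome 1, overlapped between groups, with means of 33.8 and 30.2 FPKM (log2 fold change -0.16, limma adjusted p = 0.385). These rows were chosen after their values were seen, and copies of such a family can share reads.

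Since FPKM is scaled by length, levels can be set side by side between members. In the initial state the order of mean level was AKR1D1, SLC27A5, ACOX2, CYP27A1, HSD3B7, AMACR, CYP7A1 and CYP8B1. The values of SLC27A5, ACOX2 and CYP27A1 overlapped between neighbours, as did those of CYP7A1 and CYP8B1. ACOX2 stood above CYP27A1 in all 4 initial libraries and below it in all 4 of steatosis. In steatosis CYP7A1 overlapped with AMACR, whereas in the initial state all 4 libraries had CYP7A1 below AMACR with no overlap. The summed FPKM of the 8 members was 880 ± 59.5 in the initial state and 960 ± 22.9 in steatosis (SD, n = 4 each).

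Ratios within a library do not depend on how libraries are scaled. CYP7A1 made up 1.09 ± 0.41% of the members' summed FPKM in the initial state and 3.99 ± 1.49% in steatosis (SD, n = 4 each), with no overlap. The share of CYP27A1 was 13.3 ± 1.46% and 17.9 ± 1.51% (SD, n = 4 each), again with no overlap. CYP27A1 exceeded CYP7A1 by 9.88-fold, 21.0-fold, 13.2-fold and 10.6-fold in the initial pools and by 3.62-fold, 8.02-fold, 3.83-fold and 4.65-fold in steatosis, with no overlap (exact permutation p = 0.0286, n = 4 each). The ratio of CYP7A1 to CYP8B1 was 2.06, 7.57, 2.29 and 1.78 in the initial pools and 10.2, 32.0, 10.6 and 12.7 in steatosis. Pool 2 had the highest ratio of both groups, and every steatosis pool lay above every initial pool (exact permutation p = 0.0286, n = 4 each). The ratio of CYP27A1 to AKR1D1 rose from 0.299 ± 0.060 to 0.525 ± 0.088 (SD, n = 4 each; exact permutation p = 0.0286). The ratio of AKR1D1 to CYP7A1 went from 50.5 ± 32.1 to 10.35 ± 6.36 (SD, n = 4 each; exact permutation p = 0.0286). These 4 ratios share genes that were already seen to move. With a Benjamini-Hochberg adjustment over all 15 ratios, shares, sums and marker-scaled levels computed, each stands at 0.0536.

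Hepatocyte markers were used as a check of the tissue. All 12 were detected, led by ALB, APOC3 and TTR, and their sum was 92730 to 130000 FPKM in the initial state and 77680 to 92210 in steatosis, with 1 marker called higher and 3 lower. Per unit of the geometric mean of these markers, CYP7A1 was 4.53-fold and CYP27A1 1.64-fold higher in steatosis, with no overlap between groups. The other members overlapped on that scale, from 0.85-fold for CYP8B1 to 1.875-fold for AMACR, with AKR1D1 at 0.92-fold. The markers themselves had a median log2 fold change of -0.23, so dividing by them lifts genes in general. Scaled by them, all 13175 tested genes had a median log2 fold change of 0.40, and 5132 were called higher. Of the other cell types, 11 of 14 macrophage markers were higher and none lower (0 of 14 also at an unadjusted p under 0.05), and GPNMB, C1QB and C1QC were the most abundant of the list by mean FPKM. Among cholangiocyte markers 1 of 5 was higher (SPP1), among stellate cell markers 3 of 7 were higher and 1 lower, and among endothelial markers 2 of 6 were higher. KRT19, EPCAM, SOX9 and CFTR were not called. The study found SPP1 expression positively associated with CD68 staining of the liver, and the cell source of SPP1 was not tested. For all these lists the background is 26.7% of all tested genes called higher and 2.28% lower.

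CYP4A21 showed the largest estimate among the 9 tested genes of a list of 11 further enzymes of the pathway. This enzyme (chromosome 6, 164672488 to 164715639) was measured at 43.0, 65.9, 66.6 and 43.5 FPKM in the initial pools and at 301, 200, 283 and 234 FPKM in steatosis. The groups lay far apart. CYP4A21 rose by 2.23 on the log2 scale (SE 0.19, limma adjusted p = 6.32e-05), or 4.69-fold, and by 1.95 to 2.44 over all 21 alternatives, with limma adjusted p values of at most 0.000921. The neighbouring gene CYP4A24, which is near-identical and can share reads with CYP4A21, rose by 1.37 (SE 0.39, limma adjusted p = 0.0264), from 9.36 to 23.2 FPKM on average.

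**Figure D2:**
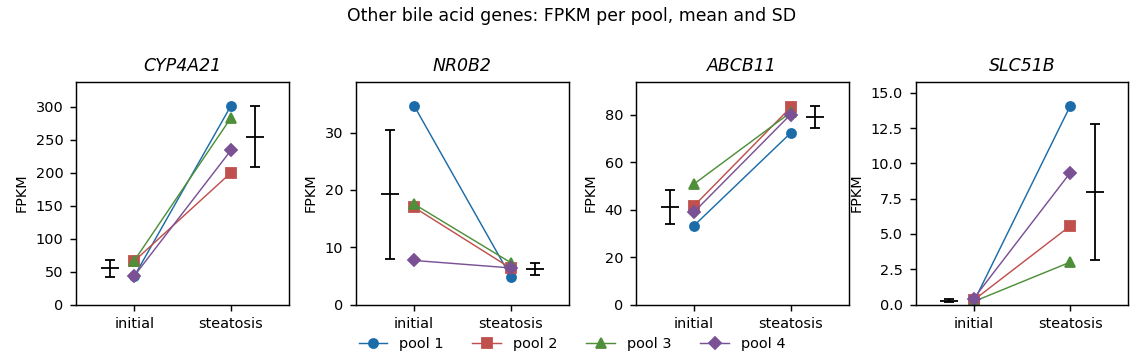
FPKM (vertical axes, each from 0) of CYP4A21, NR0B2, ABCB11 and SLC51B in the initial state and in steatosis, with pools of the same number joined and the mean and SD of 4 pools beside them. CYP4A21, ABCB11 and SLC51B are higher and NR0B2 is lower in every pool of steatosis, and pool 1 of the initial state holds the highest NR0B2.

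Besides CYP4A21, CH25H and AKR1C1 were called higher and none of the 9 was called lower, beside 26.7% and 2.28% of all tested genes. At an unadjusted p under 0.05, 1 of the 9, ABCD3, was lower, with no share of all tested genes given at that limit. CH25H, which makes an oxysterol and is also active in macrophages, was measured at 0.35 to 0.83 FPKM in the initial state and 0.90 to 1.4 in steatosis (log2 fold change 0.88, limma adjusted p = 0.0255). AKR1C1, a ketosteroid reductase with near-identical family members, went from 150.2 to 205 FPKM on average (log2 fold change 0.45, limma adjusted p = 0.0255). Both calls were lost under the same 2 scalings, and also when pool 1 or pool 2 of both groups was left out. That of CH25H was also lost without steatosis pool 1, 2 or 3 (limma adjusted p of 0.0505, 0.0696 and 0.0700), and that of AKR1C1 without initial pool 1 or 2 or steatosis pool 2, 3 or 4 (limma adjusted p of 0.0516 to 0.0703). ABCD3, the peroxisomal transporter that imports the intermediates, had means of 193 and 116 FPKM and a log2 fold change of -0.74. Its limma adjusted p was 0.0727 without and 0.0162 with the pool number as a block. ABCD3 was also called lower under the upper quartile and median ratio scalings (-1.02, limma adjusted p = 0.0406 under the latter). The same held without initial pool 3 or steatosis pool 2.

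Microsomal and mitochondrial P450 enzymes need electron donors and a supply of cholesterol. Of this list, 4 of 7 tested genes rose and 1 fell, beside 26.7% and 2.28% of all tested genes. POR, which passes electrons to CYP7A1 and the other microsomal P450 enzymes, was measured at 36.7 to 47.5 FPKM in the initial state and 59.7 to 71.1 in steatosis (log2 fold change 0.67, SE 0.11, limma adjusted p = 0.00169). CYB5A, a further electron carrier of the microsomes, rose by 0.51 (limma adjusted p = 0.0107). Its call was lost under the same 2 scalings and when pool 2 of both groups was left out. FDX1 and FDXR, the mitochondrial donors on which CYP27A1 depends, had log2 fold changes of -0.06 and 0.41 with limma adjusted p values of 0.684 and 0.107.

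TSPO, a protein of the outer mitochondrial membrane that binds cholesterol, was measured at 4.29, 3.37, 4.02 and 3.51 FPKM in the initial pools and at 15.4, 11.2, 11.95 and 15.5 FPKM in steatosis. It rose by 1.80 (SE 0.14, limma adjusted p = 4.71e-05). It is abundant in macrophages too, and the part of these cells in its rise was not tested. STARD3, which moves cholesterol from late endosomes, rose by 0.59 (limma adjusted p = 0.00502), a call lost under the median ratio scaling. STARD4, a cytosolic sterol carrier, fell by 0.46 (limma adjusted p = 0.0329). Its call was lost without initial pool 2 or 4 or steatosis pool 2, 3 or 4 (limma adjusted p of 0.0546 to 0.0957) and when scaled by hepatocyte markers (0.133). It was also lost when pool 2 of both groups was left out.

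**Figure D3:**
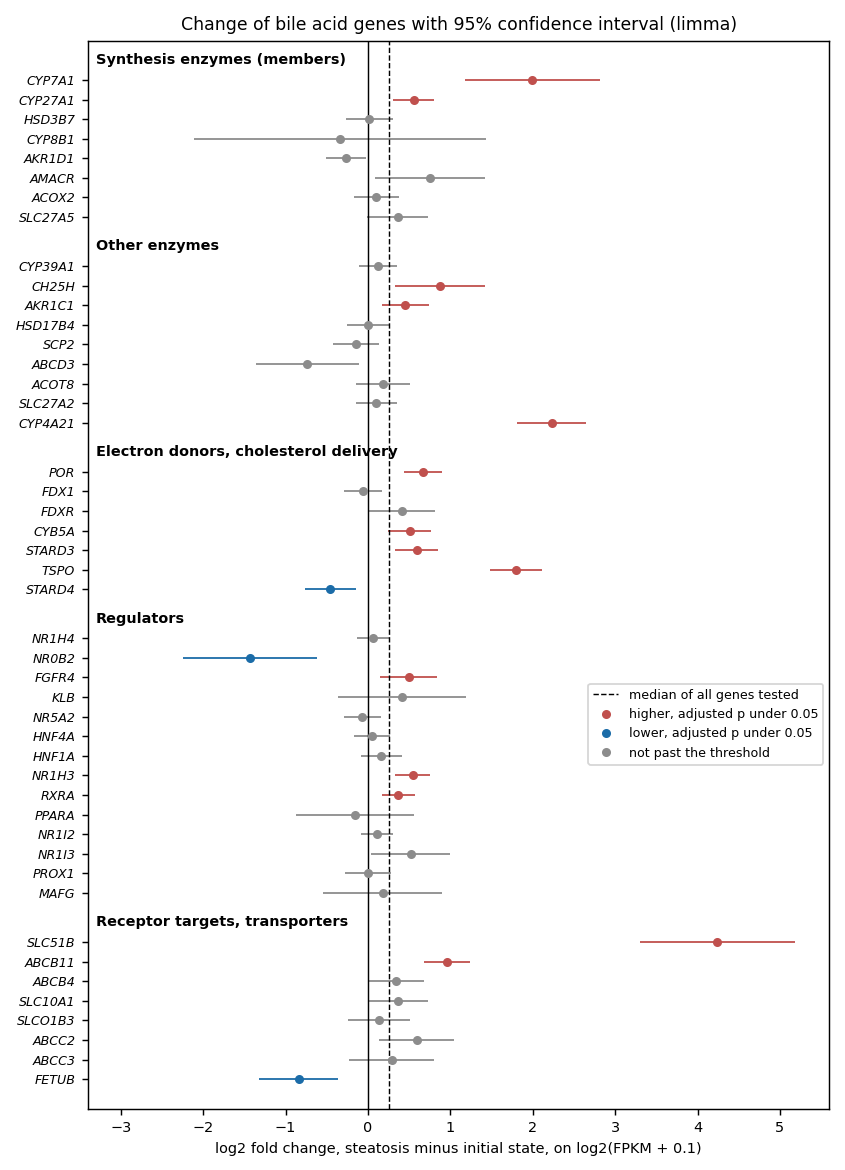
Log2 fold changes (horizontal axis, steatosis minus initial state on log2(FPKM + 0.1)) with 95% confidence intervals from limma, for the members and the fixed lists of other bile acid genes, n = 4 pools each. Colours mark an adjusted p under 0.05, and the dashed line is the median of all genes tested, 0.25. CYP7A1, CYP4A21, TSPO and SLC51B lie furthest to the right and NR0B2 furthest to the left.

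Among the regulators of synthesis, 3 of 14 tested genes rose and 1 fell, beside 26.7% and 2.28% of all tested genes. Under the median ratio scaling 0 regulators were called higher and 2 lower. That scaling called 1501 of all 13175 tested genes higher and 1336 lower. NR0B2, the repressor that bile acid receptors induce, was measured at 34.7, 17.0, 17.5 and 7.69 FPKM in the initial pools. In steatosis it was measured at 4.86, 6.33, 7.31 and 6.39 FPKM, below every initial pool although close to initial pool 4. NR0B2 fell by 1.43 on the log2 scale (SE 0.37, limma adjusted p = 0.0173). Without initial pool 1, which had the highest NR0B2 and held the muscle and stomach markers, it fell by 1.09 (limma adjusted p = 0.0203), and without pool 2 of both groups the call was lost (-1.44, limma adjusted p = 0.0799).

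The receptor above it, NR1H4, was measured at 39.6 to 45.0 FPKM in the initial state and 41.3 to 48.0 in steatosis (log2 fold change 0.06, SE 0.09, limma adjusted p = 0.607). FGFR4, the receptor of FGF19, was measured at 8.66 to 13.0 and 12.5 to 17.0 FPKM (log2 fold change 0.49, limma adjusted p = 0.0374). That call was lost without the filter on low values, without the trend, and when pool 1 or pool 2 of both groups was left out. FGFR4 was also not called under the same 2 scalings, nor without initial pool 1 or 2 or steatosis pool 1, 3 or 4 (limma adjusted p of 0.0582 to 0.105). Its co-receptor KLB overlapped between groups (0.41, SE 0.35, limma adjusted p = 0.398), and FGF19 had no row.

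NR5A2 and HNF4A, nuclear factors that bind the CYP7A1 promoter, had log2 fold changes of -0.07 (limma adjusted p = 0.642) and 0.04 (limma adjusted p = 0.757). Under the median ratio scaling NR5A2 was called lower (-0.35, limma adjusted p = 0.0195), and it was also called lower under the upper quartile. NR1H3, the oxysterol receptor LXR alpha, rose from 65.9 to 95.5 FPKM on average (log2 fold change 0.54, SE 0.10, limma adjusted p = 0.00294), and its partner RXRA rose from 36.3 to 46.9 FPKM (0.37, limma adjusted p = 0.0137). Both calls were lost under the median ratio scaling, and that of RXRA also under the upper quartile. NR1I3, a xenobiotic receptor, was called higher with the pool block (0.52, limma adjusted p = 0.0979 without and 0.0359 with it), and also when scaled by hepatocyte markers and without initial pool 4.

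Of the receptor targets and transporters, 2 of 8 tested genes rose and 1 fell, beside 26.7% and 2.28% of all tested genes. ABCB11, the bile salt export pump, was measured at 33.2, 41.6, 50.8 and 39.0 FPKM in the initial state and at 72.3, 83.1, 81.0 and 80.2 FPKM in steatosis (log2 fold change 0.96, limma adjusted p = 0.000658). SLC51B, a subunit of the basolateral bile acid exporter, was measured at 0.18 to 0.42 and 3.01 to 14.1 FPKM (4.24, limma adjusted p = 0.000149). FETUB, a secreted liver protein, fell by 0.84 (limma adjusted p = 0.0170). ABCC2, a canalicular exporter, was called higher with the pool block (0.59, limma adjusted p = 0.0542 without and 0.0268 with it), and also when scaled by hepatocyte markers and without initial pool 3. NR0B2 and ABCB11, both known as genes that bile acid receptors induce, moved in opposite directions in these livers. Of the same list as ABCB11, SLC51B rose too and FETUB fell. SLC51A, also of that list, was listed at 0 to 0.05 FPKM in the initial state and 0.12 to 0.88 in steatosis, and was not tested. On the side of the substrate, all 12 tested genes of cholesterol synthesis were called lower, against 2.28% of all tested genes. Their median log2 fold change was -1.26. Without steatosis pool 2 or pool 3 the count was 8, without steatosis pool 4 it was 9, and without pool 2 of both groups it was 5. The fall was weakest in pool 1. For each of the 12 genes the ratio of steatosis to initial state was highest there, from 0.45 for SQLE to 1.06 for DHCR7. MVD, at 1.05, and DHCR7 were not lower in that pool. SQLE was at 17.4 FPKM in steatosis pool 1 and at 0.38 to 2.01 FPKM in the other steatosis pools.

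The genes whose pattern over the 8 libraries lay nearest to that of CYP7A1 were MIOX, SLC3A1 and CTSK, out of 10634 searched, with root mean square differences of 0.30, 0.31 and 0.41 in centred log2(FPKM + 0.1). MIOX had means of 4.55 and 17.3 FPKM, SLC3A1 of 0.993 and 3.11, and CTSK of 3.88 and 14.9. In all 3, as in CYP7A1, pool 2 was the lowest of the initial pools. That is no separate result, since these genes were picked by their likeness to CYP7A1 over the same libraries. In steatosis pool 2 was the lowest for CYP7A1, SLC3A1 and CTSK, but not for MIOX (12.5 FPKM, against 12.1 in pool 4).

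**Figure D4:**
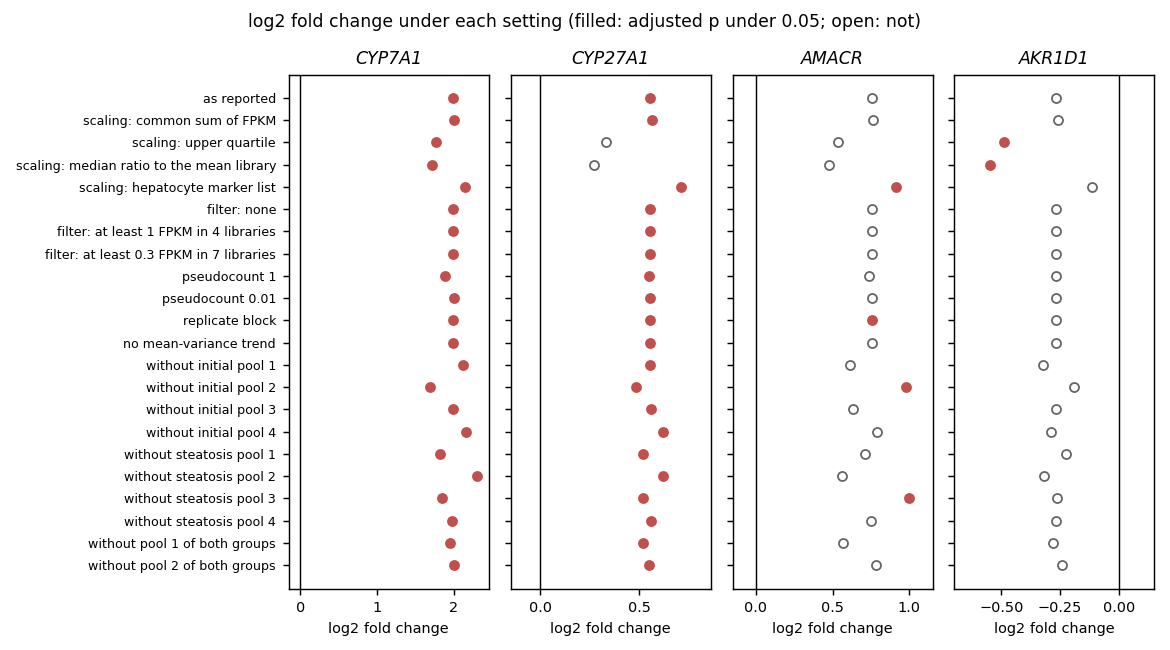
Log2 fold changes (horizontal axes, which differ between panels) of CYP7A1, CYP27A1, AMACR and AKR1D1 as reported and under 21 alternative settings, filled where the limma adjusted p is under 0.05. CYP7A1 is filled in every setting, CYP27A1 in all but 2 scalings, and AKR1D1 only in those 2.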

How the data were processed

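RNA of 8 liver pools was sequenced as 100 bp paired ends from poly-A mRNA. The authors filtered reads, mapped them with HISAT2 2.0.4 to Sus scrofa 11.1, assembled transcripts with StringTie, and estimated expression with Bowtie2 2.2.5 and RSEM 1.2.12. FPKM values were deposited by the authors for 17778 known genes and 325 new transcripts, with no stated scaling between libraries, and were used as deposited. The authors' own comparisons of pools of the same number, which hold fold changes and false discovery rates, were not used. Coordinates are those of RefSeq genes of Sscrofa11.1.

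The 13175 genes that reached 0.3 FPKM in 4 or more of the 8 libraries were tested. Group was the sole term of a limma fit (version 3.58.1, R 4.3.3) with trend on log2(FPKM + 0.1), a scale that understates changes of low genes, and p values were adjusted by Benjamini-Hochberg. Single values were compared by two-sided exact permutation tests of the mean (smallest p 0.0286) with scipy 1.17.1 in Python 3.11.15. Like the fit with group alone, these tests took the 8 libraries as independent and did not use the pairing of pools by number. Tables used numpy 2.4.6 and pandas 2.3.3, and plots matplotlib 3.10.9. In simulated data with 200 changed genes among 13175, the fit found 59.8% of changes of 1 and 95.6% of changes of 2 on the log2 scale. There were 13 false calls among 12975 unchanged genes. The simulated noise was independent, with rises and falls equally likely and no shift or pairing between libraries. In the real libraries 26.7% of tested genes were called higher and 2.28% lower, so these rates need not hold there.

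The members and lists were chosen with earlier results of these data known. Named genes were all members, every called gene of the lists of enzymes, electron donors, regulators and targets, a few core regulators and CYP4A21 whatever their p, at most 3 leading markers per cell type, and the 3 genes nearest to CYP7A1. ABCD3, NR1I3 and ABCC2 were added because the pool block changed their call. FDX1, FDXR, CYP4A24 and those stated in the text were chosen after their values were seen. Alternatives were 4 scalings (common sum, upper quartile, median ratio and hepatocyte markers), filters, pseudocounts of 1 and 0.01, no trend, a pool block, and left-out pools. A further planned scaling is not reported here.

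Both groups come from the same animals. That the pool numbers pair them is not stated, but deviations from the group means correlated at 0.16, 0.35, 0.32 and 0.25 between pools 1 to 4 of both groups, all over 0.1, so the numbers were taken to pair the libraries. Read numbers were not used. The step between low FPKM values, read from 8 to 17 genes per library, put depth at 93.0% to 100% of the deepest library, and 15934 to 16588 genes were above 0. FPKM values come without the counts behind them, so counting error was not estimated and precision is the SD between pools.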

Additional observations from a re-analysis of the deposited data

Results flagged for a closer look

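Dixon's 95% limit for groups of 4 was applied to 16 groups of member values and 14 groups of ratios, shares and sums, and chance passes it in about 1 in 20 groups. The ratio of CYP7A1 to CYP8B1 was 7.57 in pool 2 of the initial state (gap over range 0.913), far above the other 3 pools, and 32.0 in pool 2 of steatosis (0.884). Both follow from the low CYP8B1 of that pool number, 0.63 and 0.58 FPKM, which is the denominator. The share of CYP27A1 among all members was 11.2% for initial pool 2 (0.838), below the other 3 pools.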

How the results depend on the processing

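Of the 21 alternatives, 1, without pool 2 of both groups, was chosen after seeing the data. CYP7A1 was called higher in all 21 and CYP27A1 in 19. Scaling by the upper quartile or the median ratio left 1 member higher (CYP7A1) and made 1 lower (AKR1D1), and the hepatocyte markers made 4 higher, adding AMACR (0.91) and SLC27A5 (0.52). Of all 13175 tested genes, 1728 were called higher and 959 lower under the upper quartile, and 1501 and 1336 under the median ratio. The hepatocyte markers gave 5132 higher and 151 lower. The median of the members was 0.01 under the upper quartile, -0.05 under the median ratio and 0.39 under the hepatocyte markers. That of all genes was 0.04, -0.02 and 0.40. By the stricter limits 0 members passed with the upper quartile, the median ratio or without pool 1 of both groups. Under the upper quartile and median ratio, HSD3B7 turned to -0.21 and -0.27 and ACOX2 to -0.12 and -0.18; HSD3B7 was -0.13 without pool 1 of both groups. Leaving out each library in turn gave 2 to 3 members higher, 0 lower, 0 to 1 past the stricter limits, and a median of 0.17 to 0.37, with HSD3B7 at -0.065 to 0.086 and CYP8B1 at -1.07 to 0.31. In the same fits 2324 to 3389 of the 13175 tested genes were called higher and 173 to 395 lower. HSD3B7 was lower without initial pool 1 (-0.05), initial pool 3 (-0.05) or steatosis pool 1 (-0.065). The cause of these shifts was not tested. With the pool number as a block, 3 members were higher (25.7% of all tested genes), AMACR being added at 0.76, and no other member's call changed. Without the block, CYP8B1 had the widest interval of the members.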

Other observations

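SULT2A1 and GPBAR1 were looked up after the values of the members were seen. SULT2A1, which sulfates bile acids, was measured at 761, 434, 391 and 516 FPKM in the initial pools and at 381, 415, 301 and 325 FPKM in steatosis, with a log2 fold change of -0.53 (SE 0.20, limma adjusted p = 0.0713, and 0.0376 with pools blocked by number), and it was called lower in 4 of 21 alternatives, the block among them. GPBAR1, the membrane receptor of bile acids, which in liver is found mainly on cells other than hepatocytes, was measured at 1.56, 1.99, 0.84 and 1.81 FPKM in the initial pools and at 2.52, 3.22, 2.81 and 3.22 FPKM in steatosis. It rose by 0.94 (SE 0.24, limma adjusted p = 0.0170), without overlap, and that call was lost under the upper quartile and median ratio scalings.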
